A study of Mus musculus with 7 samples.

Results

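The regions described here are the 2166 Pygo2 ChIP-seq peaks that lay inside protein-coding genes, away from their ends, and that no β-catenin peak overlapped. They were 30.3% of the 7150 peaks in the Pygo2 list (95% Wilson interval 29.2 to 31.4%). A peak was taken when it shared not even 1 bp with any of the 1079 peaks of the β-catenin list, when its centre was more than 1 kb from the start and end coordinate of every protein-coding gene, and when that centre fell within a protein-coding gene on mm10. These peaks were thus chosen by their measured positions in both lists, so the absence of an overlapping β-catenin peak and their distance to gene ends are a description and no result. A β-catenin signal too weak to be called, below 11 tags for instance, would not appear in its list. The approximate IP efficiency, the share of tags that fell in peaks, was 0.12% for β-catenin and 0.74% for Pygo2.

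Chromatin came from branchial arches of wild-type mouse embryos at 10.5 days post coitum, with material from about 200 arches pooled per preparation and fixed for 40 min with 1.5 mM EGS, a protein cross-linker, with 1% formaldehyde in the last 20 min. The 7 libraries were Pygo2 ChIPs named BA1 and BA2, β-catenin ChIPs named BA1 and BA2, an IgG control (pre-immune serum) named BA1, and inputs named BA1 and BA2, and the labels do not state what separates BA1 from BA2. Peak lists of the Pygo2 BA2 and β-catenin BA2 libraries were used, and for both of them the file headers name IgG BA1 as the control. Each list is 1 library from pooled arches of mixed cell types, so no value has a replicate error or a test, all members share that library, and the Wilson intervals cover counting error only.

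Pygo2 carries a PHD finger that binds methylated histone H3 tails, and Bcl9 proteins bridge it to β-catenin in canonical Wnt signalling. β-catenin itself is brought to DNA by TCF/LEF factors, often at enhancers inside or between genes. The branchial arches are embryonic swellings of neural crest, mesoderm and epithelium that form the face, the neck and the great vessels. A gene can carry further transcription start sites inside its body, each with its own promoter, so a peak away from the outer ends of a gene may still be at a start.

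Many of the earliest-listed of these peaks lay at such internal starts, and the sequences before 6 of these starts are shown for that reason. The hosts are Rnf126 (a ubiquitin ligase), Cipc (a repressor of the circadian factor CLOCK), Midn (midnolin, which carries proteins to the proteasome), Sirt4 (a mitochondrial sirtuin), Rexo1 (an exonuclease-family protein) and Hif1a (the oxygen-regulated transcription factor). Each line gives the 250 bases before an internal start, on the strand of the gene and 5′ to 3′, from RefSeq on GRCm38.p6, and the capitals mark the 167 bases of the Pygo2 peak. The windows are chr10:79766953-79767202 on the minus strand (Rnf126), chr12:86947093-86947342 on the plus strand (Cipc), chr10:80149432-80149681 on the plus strand (Midn), chr5:115484298-115484547 on the minus strand (Sirt4), chr10:80561561-80561810 on the minus strand (Rexo1) and chr12:73907617-73907866 on the plus strand (Hif1a).
Rnf126: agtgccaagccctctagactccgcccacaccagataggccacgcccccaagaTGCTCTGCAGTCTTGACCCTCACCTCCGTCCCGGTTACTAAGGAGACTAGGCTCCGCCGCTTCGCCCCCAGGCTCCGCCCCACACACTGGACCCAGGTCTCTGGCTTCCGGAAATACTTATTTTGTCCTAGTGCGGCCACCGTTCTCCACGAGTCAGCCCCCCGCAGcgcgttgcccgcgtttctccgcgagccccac
Cipc: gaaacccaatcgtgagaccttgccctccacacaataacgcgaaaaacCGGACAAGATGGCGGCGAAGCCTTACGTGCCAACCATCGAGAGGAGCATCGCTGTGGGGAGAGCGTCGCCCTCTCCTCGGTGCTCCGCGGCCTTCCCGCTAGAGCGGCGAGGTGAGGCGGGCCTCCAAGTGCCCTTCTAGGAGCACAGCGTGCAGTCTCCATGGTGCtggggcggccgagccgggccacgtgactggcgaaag
Midn: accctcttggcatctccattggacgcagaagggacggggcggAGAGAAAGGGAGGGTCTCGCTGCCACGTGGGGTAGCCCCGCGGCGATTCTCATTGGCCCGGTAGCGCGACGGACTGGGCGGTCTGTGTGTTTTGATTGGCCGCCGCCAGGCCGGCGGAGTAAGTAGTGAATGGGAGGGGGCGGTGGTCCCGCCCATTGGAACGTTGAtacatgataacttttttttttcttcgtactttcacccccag
Sirt4: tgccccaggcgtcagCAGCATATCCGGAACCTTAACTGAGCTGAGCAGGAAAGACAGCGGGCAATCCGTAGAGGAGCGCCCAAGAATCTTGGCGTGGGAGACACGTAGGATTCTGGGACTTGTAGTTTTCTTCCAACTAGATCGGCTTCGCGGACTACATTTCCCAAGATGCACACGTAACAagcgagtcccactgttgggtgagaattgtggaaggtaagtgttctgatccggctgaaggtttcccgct
Rexo1: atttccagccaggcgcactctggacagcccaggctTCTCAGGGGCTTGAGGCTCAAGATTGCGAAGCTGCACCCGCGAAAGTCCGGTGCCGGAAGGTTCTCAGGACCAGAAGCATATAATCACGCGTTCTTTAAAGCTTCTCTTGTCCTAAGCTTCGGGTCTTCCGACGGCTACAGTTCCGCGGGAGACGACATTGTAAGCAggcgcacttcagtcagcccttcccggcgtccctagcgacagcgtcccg
Hif1a: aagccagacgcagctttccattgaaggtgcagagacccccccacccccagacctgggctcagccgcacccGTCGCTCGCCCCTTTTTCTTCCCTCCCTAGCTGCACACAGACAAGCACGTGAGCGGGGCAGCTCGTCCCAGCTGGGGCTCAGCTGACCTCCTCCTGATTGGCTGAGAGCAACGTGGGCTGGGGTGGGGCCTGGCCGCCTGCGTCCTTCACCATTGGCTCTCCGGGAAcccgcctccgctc
The peaks span 51.5% (Sirt4) to 66.5% (Cipc) G and C. The peak at Midn held 3 matches to the CCAAT box and that at Hif1a 2. The peaks at Rnf126 and Rexo1 held 1 match each to the ETS motif CCGGAAG, and none of the 6 held the TCF/LEF core CTTTGAT.

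Of the 2112 peaks on chromosomes covered by the table of start sites, 240 had their centre within 250 bp of an internal start (11.4%, interval 10.1 to 12.8%). In all 240 the start belonged to the host gene. The table held 17492 of the 21887 protein-coding genes, so internal starts of the other genes could not be counted. Peaks in those genes are still among the 2112. Internal starts were the 3881 annotated starts of 2929 protein-coding genes that were themselves more than 1 kb from all gene ends. Sequence that close to an internal start made up 0.188% of the gene sequence in which a peak of this kind could lie, and the share of peaks was 60.3 times as high. Seen from the starts, 264 of the 3881 had such a peak (6.80%), in 236 genes. Within 100 bp lay 134 peaks (6.34%) and within 1000 bp 365 (17.3%). For peaks inside genes that β-catenin shared, 12 of 68 were within 250 bp of an internal start (17.6%, interval 10.4 to 28.4%), and for peaks of β-catenin alone 17 of 285 (5.96%, interval 3.76 to 9.34%). The first of these intervals includes the share of the Pygo2-only peaks and the second lies below it.

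The peaks at internal starts sat just before them. The median offset of the peak centre from the start was -54.5 bp, with quartiles of -130.5 and 28.0 bp, and 163 of the 240 centres were upstream, as the histogram of offsets shows. They also came early in the list. Their median position was at 35.3% of the list (quartiles 17.2 and 59.4%), against 66.7% (quartiles 42.7 and 83.7%) for the peaks away from internal starts. The latter group includes peaks in genes outside the start table. Among the Pygo2-only peaks inside genes in the first 10% of the list, 39 of 100 were at an internal start (39.0%), and in the last 10% of the list 10 of 275 (3.64%). List position, with its limits, is described with the make-up of the list.

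**Figure D1:**
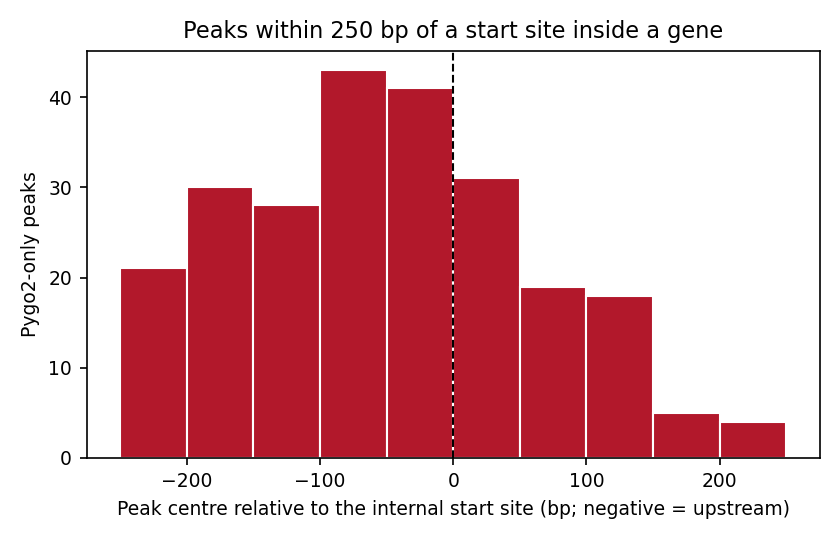
Number of Pygo2-only peaks inside genes (y axis) by the position of their centre relative to the nearest internal start site in bp (x axis, negative values upstream), for the 240 peaks within 250 bp. The bars are highest just upstream of the start, and 163 of the 240 centres lay upstream.

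The start windows that held a peak differed in sequence from those that did not. The 264 windows of 300 bases around internal starts with a peak had a median of 62.0% G and C and an observed over expected CpG ratio of 0.745, against 54.0% and 0.377 for the 3617 internal starts without one. The ETS motif CCGGAAG, searched on both strands, was in 54 windows with a peak (20.5%, interval 16.0 to 25.7%), in 5.92% of those without (interval 5.19 to 6.73%) and in 8.86% of all 32851 start windows. The CCAAT box was in 35.2% and 34.7% of the windows with and without a peak. The TCF/LEF core CTTTGAT was in 4 of the 264 windows with a peak (1.52%, interval 0.591 to 3.83%). It was in 3.18% of those without and in 3.73% of all start windows, and the interval includes both. The AP-1 motif TGANTCA, which shared bases with CTTTGAT in none of the windows with a peak and in 18 of all windows, was in 6.44% (interval 4.06 to 10.1%), 7.82% and 7.81%. Windows nearest to the Pygo2-only peaks at gene ends, 1709 in number, had 61.3% G and C, a CpG ratio of 0.821 and the ETS motif in 25.6%. In 91 cases the whole peak fell within a window, and these peaks had a median of 64.1% G and C. Matches describe letters and not sites, and peaks away from internal starts have no sequence in the files used here.

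The deposited list gives every peak the same score and width, so the place in the list was the only ordering at hand. Peaks of this kind began at position 12 and stood later than shared peaks inside genes and than Pygo2-only peaks at gene ends, and close to the intergenic ones. Their median position was at 63.4% of the list (quartiles 38.4 and 82.4%), against 32.3% for the 71 peaks inside genes that β-catenin shared, 35.7% for the 3129 Pygo2-only peaks at gene ends and 65.5% for the 1582 Pygo2-only intergenic peaks. They were 103 of the 715 peaks in the first 10% of the list (14.4%, interval 12.0 to 17.2%), 46.7% of the next-to-last 10% and 40.3% of the last 10% (interval 36.7 to 43.9%). Pygo2-only peaks at gene ends ran the other way, with 63.4% of the first 10% and 19.6% of the last. The headers do not name the order. The list consists of 80 stretches in which chromosomes and positions ascend, the longest of 554 peaks, so neighbours within a stretch are not ranked. Peaks in this list rested on a mean of 15.5 tags, with 10 as the minimum, in a library of 15009636 tags.

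**Figure D2:**
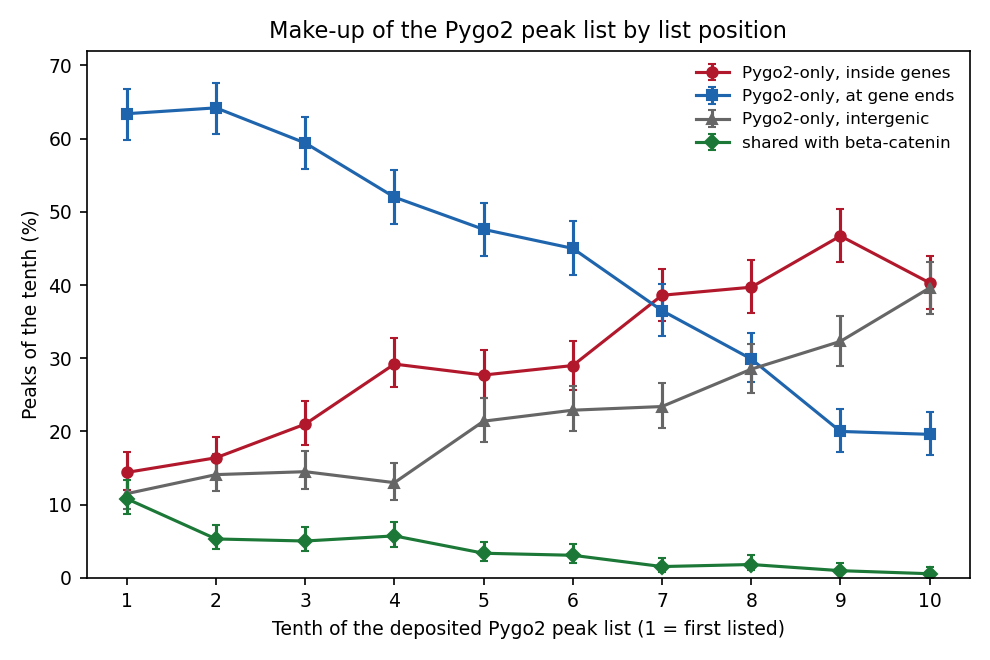
Make-up of the Pygo2 list in 10 equal stretches, first-listed on the left: share of peaks in percent (points, with 95% Wilson intervals) that were Pygo2-only inside genes, Pygo2-only at gene ends, Pygo2-only intergenic, or shared with β-catenin. The peaks inside genes made up 14.4% of the first stretch and 40.3% of the last.

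The earliest of these peaks was inside Dpysl2, at position 12. Dpysl2 encodes a collapsin response mediator (CRMP2), a cytoplasmic protein that binds tubulin and acts in semaphorin signalling. The gene spans chr14:66802864-66911041, 108 kb, and the peak chr14:66831065-66831231, 28.3 kb from the nearer gene end. A second peak in Dpysl2, at chr14:66873441-66873607, had position 4643. No Pygo2 or β-catenin peak lay at either end of Dpysl2, and no β-catenin peak inside it. The next were in Tex14, a gene of germ cell bridges, at positions 22 and 36, and in Zbtb7a, a zinc finger repressor gene, at position 25, 2.21 kb from a gene end. The peak in Banp, which encodes a DNA-binding protein of CpG-rich promoters, had position 50 and was 2.29 kb from an end.

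Of the 15 first-listed peaks, 9 were within 250 bp of an internal start. In Atp5d, a subunit gene of the mitochondrial ATP synthase, that distance was 13 bp (position 52), and in Rnf126 115 bp (position 58). In Srrm2, which encodes a splicing scaffold, it was 220 bp, in Arhgef1, a small GTPase activator gene, 39 bp, and in Dazap1, an RNA-binding protein gene, 243 bp. In Cipc it was 120 bp, in Arrdc3, an arrestin-like gene, 223 bp, in Ptprs, a receptor tyrosine phosphatase gene, 180 bp, and in Rassf1, a tumour suppressor gene, 48 bp. The peak in Actb, the gene of β-actin, had position 138 and lay 1.16 kb from a gene end. Actb is not in the table of start sites, so its distance to an internal start of that gene was not measured.

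Distances to the nearest end of any protein-coding gene were spread widely. Their quartiles were 3.86, 14.0 and 44.4 kb, and the farthest peak lay 624 kb inside. Within 5 kb were 632 peaks (29.2%, interval 27.3 to 31.1%), and more than 50 kb away 486 (22.4%). The members closest to the 1 kb limit were peaks in Rara (1001 bp, from an end of Gm46294), Edn3 (1006 bp), Hbp1 and Khdc4 (1008 bp each) and Setd7 (1009 bp). Among the peaks that the limit just left out were those at Nedd4 (986 bp), Zp2 (987 bp), Marveld1 (992 bp) and Garnl3 (998 bp). In 41 members (1.89%, interval 1.40 to 2.56%) a β-catenin peak lay within 1 kb without overlap, among them one in Frmd4a.

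Along the gene, density was highest just past the start. For the 17492 genes with a strand in the start table, it was 14.6 peaks per Mb between 1 and 2 kb downstream of the gene start (213 peaks), 4.80 between 2 and 5 kb, 2.84 between 5 and 10 kb and 1.36 beyond 100 kb. Measured from the 3′ end, density was 2.76 per Mb between 1 and 2 kb, 2.63 between 2 and 5 kb, 2.98 between 5 and 10 kb, 2.96 between 10 and 20 kb and 1.56 beyond 100 kb. With the peaks at internal starts left out, 9.95 per Mb remained between 1 and 2 kb from the start and 3.31 between 2 and 5 kb. Of 1723 peaks in genes with a strand, 1006 were nearer to the start than to the 3′ end (58.4%, interval 56.0 to 60.7%). The values were 40 of 55 (72.7%) for shared peaks inside genes and 147 of 244 (60.2%) for β-catenin-only ones.

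**Figure D3:**
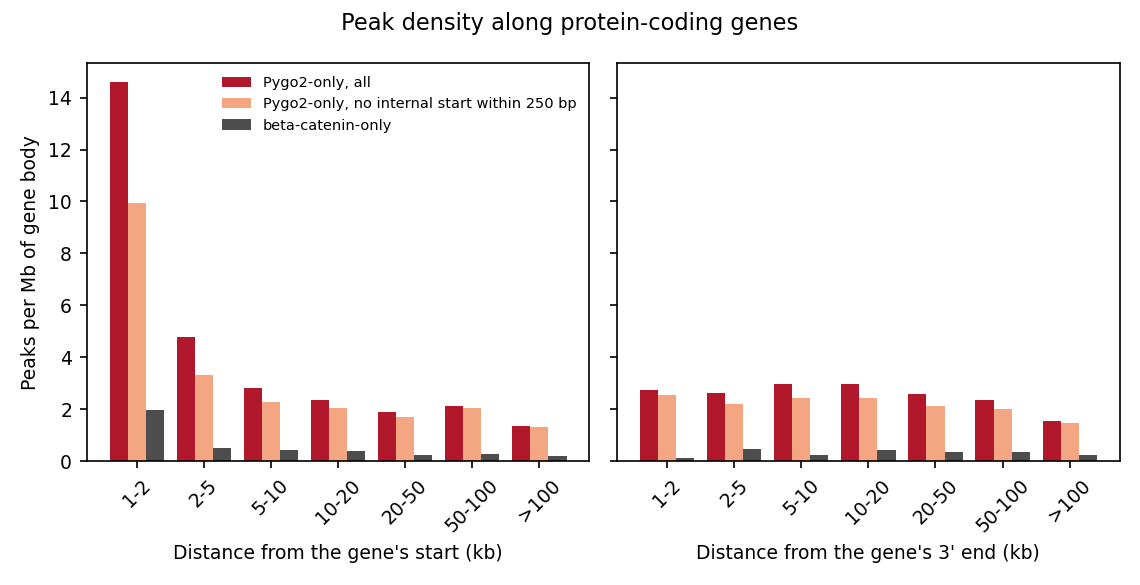
Peaks per Mb of gene body by distance in kb from the gene start (left) and from the 3′ end (right), as bars for all Pygo2-only peaks, for those with no internal start within 250 bp and for β-catenin-only peaks. Pygo2-only density was 14.6 per Mb at 1 to 2 kb from the start, and 2.76 per Mb at the same distance from the 3′ end.

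By chromosome, peaks numbered 2.19 per Mb of eligible gene sequence over 988 Mb. Chromosome 11 had 4.36 per Mb (230 peaks), chromosome 4 had 3.07 and chromosome 2 had 2.68. The X chromosome had 0.274 per Mb (12 peaks), and chromosome Y had 0.

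The peaks fell in 1639 of the 19301 protein-coding genes longer than 2 kb (8.49%). Of these hosts 394 held 2 or more (2.04% of the genes) and 135 held 3 or more, and 931 peaks (43.0%, interval 40.9 to 45.1%) were in such multi-peak hosts. Hosts were long genes, with a median span of 69.7 kb against 19.5 kb for the other genes. The host share was 1.72% of genes of 2 to 10 kb, 5.95% of those of 10 to 30 kb, 10.3% of those of 30 to 100 kb and 26.3% of those over 100 kb. Per Mb of sequence the order was reversed, with 5.28, 4.20, 2.48 and 1.72 peaks. Neighbouring peaks of 1 host had a median spacing of 20.8 kb, and 63 of 615 such pairs were within 1 kb. Pairs were counted once for each gene that held them, so pairs in overlapping genes enter more than once. Inside more than 1 gene were 24 peaks, and each of them counts for every gene that holds it. The same 3 peaks lay inside more than 20 overlapping genes of the protocadherin gamma locus. These genes thus enter the counts of multi-peak hosts with the same peaks. With only the peaks inside exactly 1 gene, hosts were 1588 (8.23%).

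Hosts also carried Pygo2 at their ends somewhat more often than other genes. A Pygo2 peak lay within 1 kb of an own end in 354 of 1639 hosts (21.6%, interval 19.7 to 23.7%), against 3110 of 17662 other genes (17.6%, interval 17.1 to 18.2%), with 17.9% over all genes. Within each class of length hosts stood higher, at 26.1% against 18.4%, 26.0% against 18.2%, 20.7% against 17.9% and 19.1% against 12.8% from the shortest to the longest. The host shares rest on 24 of 92, 100 of 384, 108 of 523 and 122 of 640 genes. They have no intervals here, so counting error may cover some of these gaps. A β-catenin peak was inside 119 hosts away from their ends (7.26%, interval 6.10 to 8.62%) and inside 221 other genes (1.25%, interval 1.10 to 1.43%), with 1.76% over all genes. These shares are of genes in 1 library per protein, and the hosts were longer.

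The host with most peaks was Gse1, which encodes a partner of the LSD1-CoREST corepressor. Its 14 peaks were spread over 353 kb of chromosome 8, from 47.8 to 337 kb past the start, and one of them was 37 bp from an internal start. A further Pygo2 peak at 321 kb was shared with β-catenin, and an unshared β-catenin peak lay at 293 kb. Msi2, an RNA-binding Musashi gene, held 10 peaks between 14.9 and 312 kb from its start, and a Pygo2 peak outside the gene lay at -0.192 kb from its start. The 9 peaks of Maml3, a Notch coactivator gene, included a pair at 2.29 and 2.75 kb from the start and another at 58.2 and 59.1 kb, with no β-catenin peak in the gene. Dnm3, a dynamin gene, also held 9, and Lrmda, a gene linked to melanocyte differentiation, held 7 over 1037 kb.

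Septin9, a cytoskeletal GTPase gene, and Cuedc1, which has a ubiquitin-binding domain, held 6 each. So did Frmd4a and Pard3, which encode scaffolds of epithelial polarity. In Septin9 the earliest peak in the list was 18 bp from an internal start. In Frmd4a the peak at position 1106 lay 281 kb from the start beside a β-catenin peak that it did not overlap. The peaks of Pard3 were between 16.2 and 191 kb past the start of a gene of 549 kb.

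**Figure D4:**
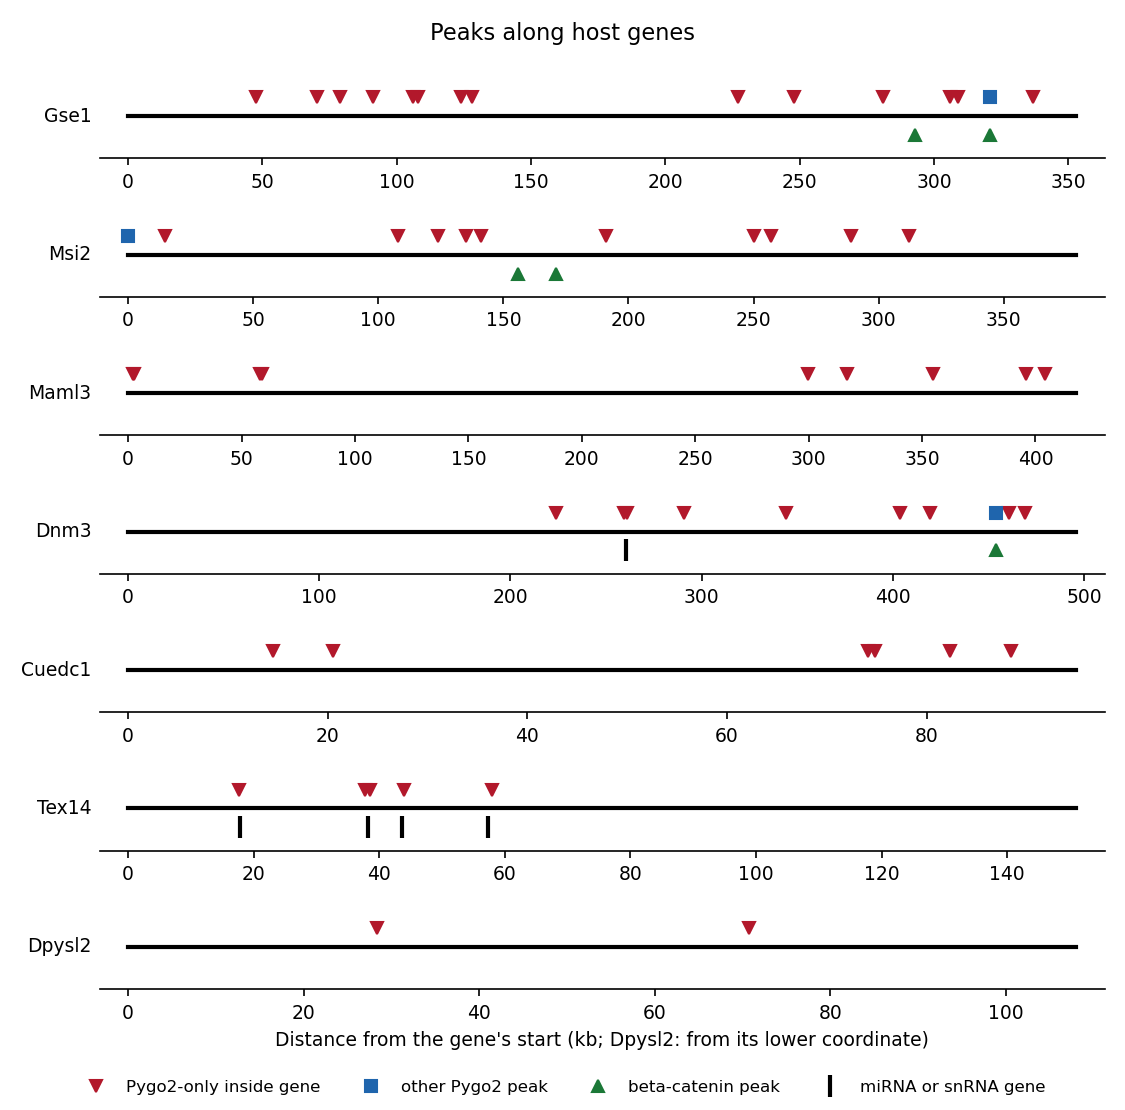
Peaks along 7 host genes drawn to scale, each on its own axis in kb from the gene start (Dpysl2 from its lower coordinate), with Pygo2-only peaks inside the gene and other Pygo2 peaks above the line and β-catenin peaks and miRNA or snRNA genes below it. Gse1 carried 14 Pygo2-only peaks over 353 kb, and the 5 peaks of Tex14 sit beside genes annotated as snRNA genes.

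Among hosts with 3 or more peaks, short genes led by density, which divides the count by the span. Some hosts of 2 peaks were denser, such as Actb at 41.1 per 100 kb. Mnt, which encodes a partner of MAX that represses transcription, held 3 peaks in 14.9 kb (20.1 per 100 kb), at 1.37, 7.20 and 7.82 kb from the start, with a Pygo2 peak at 0.157 kb from the start too. Kdm6b, the histone H3 lysine demethylase gene, held 4 in 21.9 kb (18.3 per 100 kb), the earliest at position 161. Gnai2, a G protein gene, held 3 (14.1 per 100 kb). Lmna, the lamin A/C gene, held 3 (10.4 per 100 kb), one of them 24 bp from an internal start. Sh2d3c, an adaptor gene, held 3 (8.83 per 100 kb), one of them 149 bp from an internal start.

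Some of the peaks lay beside non-coding genes inside their hosts. An end of a lncRNA gene was within 1 kb of 118 peaks (5.45%, interval 4.57 to 6.48%), against 11.6% of Pygo2-only peaks at gene ends and 12.6% of intergenic ones. For miRNA genes the number was 14 (0.646%, interval 0.385 to 1.08%), against 0.959% and 0.316%. For tRNA genes it was 2 (0.0923%), against 0.863% and 2.97%. An end of a snoRNA gene lay within 1 kb of 1 peak (0.0462%), against 0.384% and 0.316%. For genes annotated as snRNA genes the number was 6 (0.277%), against 0.384% and 1.26%, and 5 of these were the 5 peaks of Tex14. They were 150 bp from Rnu1a1, a U1 gene, 105 and 393 bp from Rnu3b1, 210 bp from Rnu3b3 and 366 bp from Rnu3b4, which encode copies of the U3 RNA that acts in ribosomal RNA processing. Copies of these genes are near-identical, so the copy that the reads came from is uncertain.

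The mature sequences of Mir199a are shown because both of its genes had a peak within 1 kb, from RefSeq on GRCm38.p6, 5′ to 3′, with the seed (bases 2 to 8) in capitals. Inside Dnm3 the peaks at positions 1269 and 1937 were 377 and 890 bp from Mir199a-2, and the first of them was 186 bp from an end of the lncRNA gene Dnm3os. Inside Dnm2 a peak at position 1376 was 181 bp from Mir199a-1. Mir199a-1 and Mir199a-2 encode the same mature sequences.
mmu-miR-199a-5p: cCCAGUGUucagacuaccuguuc
mmu-miR-199a-3p: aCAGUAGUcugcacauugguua
The others among the 10 peaks nearest to a miRNA gene were at Mir6546 in Fcgr3 (24 bp, with a tRNA gene 71 bp away), Mir5620 in Clcn4 (110 and 511 bp), Mir6352 in Epha4 (225 bp), Mir7025 in Pdgfra (362 bp), Mir6976 in Srf (597 bp), Mir1191b in Nfic (650 bp) and Mir6391 in Abcc4 (677 bp).

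The hosts were then read by gene list, each share of host genes beside that of all protein-coding genes of the same length classes. The 17 lists held 551 distinct symbols, of which 30 stood on more than 1 list. In 12 of the 17 lists the share was above that of genes of the same length classes, and in the 5 others (pharyngeal epithelium, endothelium, blood, neurons and hepatocytes) below it. These lists describe positions of peaks and not expression, and the labelled tissue cannot be checked against markers from them.

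Among Wnt genes, 5 of 30 targets were hosts (16.7%, interval 7.34 to 33.6%, against 7.18% of genes of the same length classes). Znrf3, the ubiquitin ligase that removes Frizzled receptors, held 4 peaks, at 1.43, 29.1, 31.4 and 67.6 kb from a gene end. Axin2, a feedback scaffold, held 2, at 7.54 and 29.9 kb from its start. Both genes also held a β-catenin peak away from their ends, and Znrf3 a Pygo2 peak at an end. Bmp4, a ligand, and Lef1, an HMG-box factor that recruits β-catenin, held 1 each, with no β-catenin peak inside. Of 50 pathway components, 10 were hosts (20.0%, interval 11.2 to 33.0%, against 9.83%). Tcf7l1, a TCF repressor gene, held 4 peaks between 42.1 and 134 kb from its start, and Ror2, a receptor for Wnt5a, held 3 between 75.3 and 103 kb. Bcl9l, which encodes an adaptor between Pygo and β-catenin, held 2, at positions 207 and 3819, and its paralogue Bcl9 held 1, 536 bp from an internal start. Wnt6, a ligand, held 2, and Vangl2, of planar polarity, held 1.

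In the heart list 10 of 52 genes were hosts (19.2%, interval 10.8 to 31.9%, against 10.0%). Smad6, an inhibitor of BMP signalling, held 3 peaks at 14.0, 41.2 and 62.8 kb from its start. Kmt2d, a histone H3 methyltransferase, held 2, as did Jag1, a Notch ligand, and Notch2, its receptor, and Mef2c, a muscle transcription factor, and Smarcd3, a BAF subunit, held 1 each. In the arch patterning list 12 of 46 were hosts (26.1%, interval 15.6 to 40.3%, against 7.58%). Prrx2, a homeobox factor of mesenchyme, held 3 peaks, at 7.98, 27.9 and 30.8 kb from its start. Eya2, a coactivator of sine oculis homeobox factors, and Pbx3, a TALE homeobox gene, held 2 each, and Meis2 and Nr2f2 held 1 each.

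Of 44 genes of BMP, FGF, Hedgehog and Notch signalling, 14 were hosts (31.8%, interval 20.0 to 46.6%, against 9.33%). Ptch1, the Hedgehog receptor, held peaks at 5.88 and 6.96 kb from its start. Fgfr2, an FGF receptor, held peaks at 6.72 and 96.2 kb, and Gli2, a Hedgehog effector, at 71.1 and 136 kb. Smad6, Jag1 and Notch2 are counted here as well, and of these named genes Notch2 alone held a β-catenin peak inside.

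In the list of Dpysl2, which holds collapsin response mediators, semaphorins, plexins and neuropilins, 14 of 38 genes were hosts (36.8%, interval 23.4 to 52.7%, against 16.2%). Dpysl2 itself, the host of the earliest-listed peak, is counted among these hosts. The list was chosen with earlier results of these data known, so its share is a description. Nrp2, a semaphorin receptor, held peaks at 23.9 and 51.0 kb from its start, Sema3f and Sema6a, ligands, held 2 each, and Sema4c held 1, 392 bp from an internal start. Of 33 genes of axon guidance and Eph signalling, 15 were hosts (45.5%, interval 29.8 to 62.0%, against 18.2%). The median span of the 33 genes was 162 kb. It falls in the length class over 100 kb, which has no upper limit, so lengths within that class were not matched. Ephb2, an Eph receptor, held 5 peaks, and Slit3, a Robo ligand, held 4, at 167, 402, 403 and 423 kb from its start. Epha4, Slit2, Robo1 and Unc5c (a netrin receptor) held 3 each, with that of Slit2 listed first 252 bp from an internal start. A β-catenin peak lay inside Ephb2, Robo1 and Unc5c too.

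Of 43 genes of the actin cytoskeleton and its small GTPases, 17 were hosts (39.5%, interval 26.4 to 54.4%, against 17.1%). Actn4, an actin cross-linker, and Kalrn, a small GTPase activator, held 3 each, and Actb held 2, at positions 138 and 612. Tiam1 and Vav2, Rac activators, and Arhgap23, a GTPase-activating protein gene, held 2 each. Of 55 chromatin regulators, 17 were hosts (30.9%, interval 20.3 to 44.0%, against 16.2%), among them Kdm6b with 4 peaks, Kat6b, Hdac9 and Bahcc1 with 3 each and Kmt2d with 2. Of 42 extracellular matrix genes, 14 were hosts (33.3%, interval 21.0 to 48.4%, against 16.1%), with 3 peaks each in Col23a1 and Adamts9, 2 in Col2a1, the collagen of cartilage, and 1 each in Adamts1, Col27a1 and Col18a1.

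Among markers of cell types in or near the arches, 5 of 23 neural crest genes were hosts (21.7%, interval 9.66 to 41.9%, against 7.16%), namely Ets1 with 2 peaks and Pax3, Cdh11, Ngfr and Pax7 with 1 each. Of 15 arch muscle genes, 4 were hosts (26.7%, interval 10.9 to 52.0%, against 6.21%), among them Pax3, Chrna1 and Pax7, and Pax3 and Pax7 stand on the neural crest list too. Hosts were 2 of 18 endothelial genes (11.1% against 11.5%; Eng and Flt1), 1 of 13 blood genes (7.69% against 8.77%; Klf1), 1 of 21 neuronal genes (4.76% against 9.67%; Map2) and 1 of 23 pharyngeal epithelium genes (4.35% against 6.09%; Grhl3). None of 19 hepatocyte genes was a host, which allows up to 16.8% by the interval, against 5.07%. Shares of such small lists have wide intervals.

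**Figure D5:**
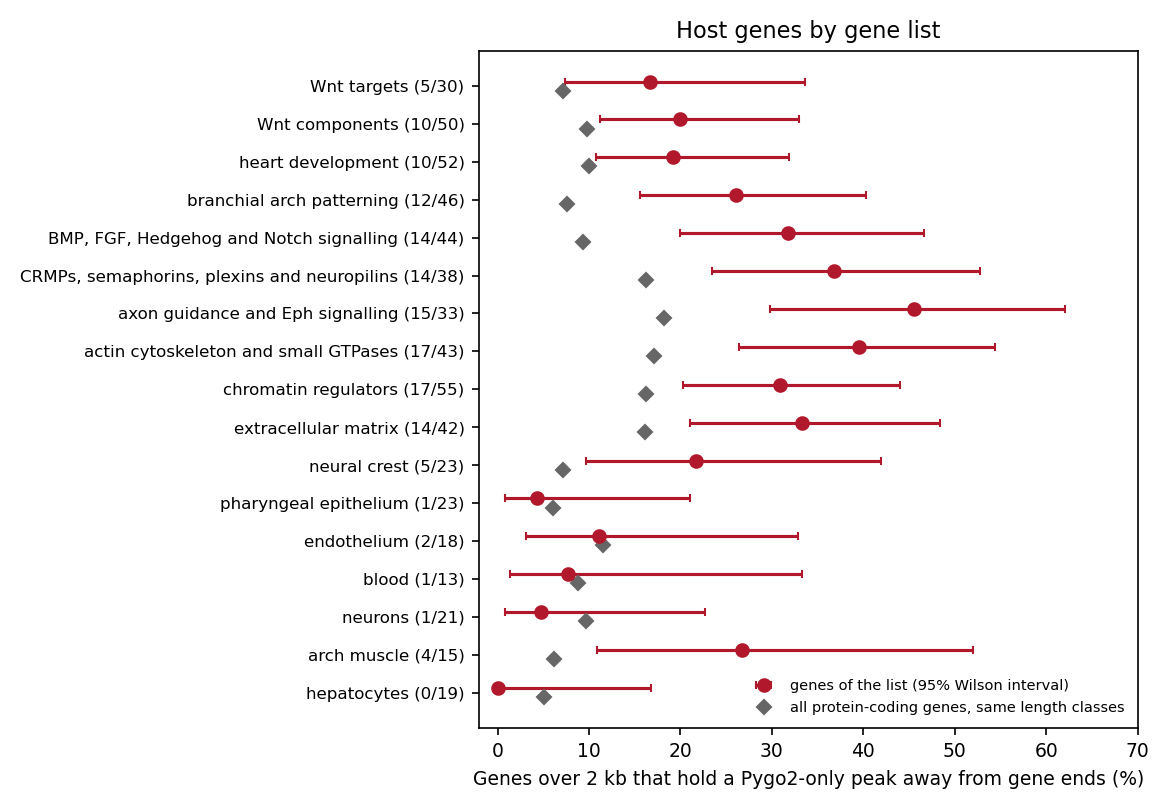
Percent of the genes over 2 kb of each list that host a Pygo2-only peak away from gene ends (circles with 95% Wilson intervals, counts in the labels), and of all protein-coding genes of the same length classes (diamonds). The share was 45.5% for axon guidance and Eph signalling and 0% for hepatocyte genes, against 18.2% and 5.07% of genes of the same length classes.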

How the data were processed

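ChIP-seq of β-catenin and Pygo2 in branchial arches was taken from the authors' deposited peak lists, called with HOMER findPeaks in factor style per the file headers. Bowtie, Bowtie2, HOMER and mm10 are named in the submitters' processing notes, without versions or roles. A peak needed a false discovery rate of 0.001 on tags, 2-fold more tags than IgG BA1 and than the local 10 kb and a Poisson p-value of 1e-04, per the file headers. The score deposited by the authors is 1 for every peak, so list position replaced it. Coordinates are 1-based.

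Genes came from RefSeq GRCm38.p6, the assembly of mm10, 21887 protein-coding genes in all. That table has no strand, so strand and internal starts came from RefSeq start windows. The sequence comparison planned for whole peaks was replaced by these windows, since no genome was used here. Shares have 95% Wilson intervals. Backgrounds by gene length used 4 length classes, of which the longest, over 100 kb, has no upper limit. Members and lists were chosen with earlier results of these data known. Named were hosts of the 15 first-listed peaks, the 10 hosts with most peaks, the 5 densest with 3 or more, up to 6 hosts per list, up to 10 peaks nearest to a miRNA gene and 5 on each side of the limit. Rexo1, Hif1a, Sirt4 and Midn (for their windows), Dnm3os and the genes annotated as snRNA genes in Tex14 were chosen after their values were seen. Some genes that this rule names are not reported here. In a check of the code, peaks were planted on the real gene table by the same 1 kb rule, and all 150 planted members were recovered. That check covers the assignment of peaks to classes and not peak calling. Alternatives changed overlap, the 1 kb limit, the start distance and the part of the list used. Python 3.11.15, NumPy 2.4.6, pandas 2.3.3, SciPy 1.17.1 and Matplotlib 3.10.9 were used.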

Additional observations from a re-analysis of the deposited data

How the results depend on the processing

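No paired analysis was possible because each protein has 1 analysed library. Of 239 comparisons of 24 results with an alternative, 209 kept their value within the range set for it. Using only the first 50% of the list gave 777 peaks, 649 hosts, 126 genes with more than 1 peak, 42.9% within 5 kb of a gene end, 29.0% of hosts with a Pygo2 peak at an end and 20.8% at an internal start. Hosts were then 3.36% of genes, and in the lists 6.67% of Wnt targets, 9.62% of heart genes, 15.9% of BMP, FGF, Hedgehog and Notch genes, 13.2% of the semaphorin list, 18.2% of axon guidance genes, 16.3% of actin regulators, 9.52% of matrix genes, 4.35% of neural crest genes, 6.67% of arch muscle genes and 0% of pharyngeal and blood genes. A limit of 0.5, 2 or 5 kb gave median list positions of 61.6, 66.3 and 68.4% and internal start shares of 9.79, 9.31 and 6.82%. Internal starts stayed defined as more than 1 kb from gene ends, so starts nearer to an end were not counted with the 0.5 kb limit. With 0.5 kb, 33.5% of hosts had a Pygo2 peak at an end, because members 0.5 to 1 kb from an end of their host then count as that peak. With 5 kb, 13.0% of arch patterning genes were hosts, and with 2 and 5 kb 0% of blood genes. Over all genes the host share was then lower too, at 7.12% with 2 kb and 5.86% with 5 kb. The internal start share was 6.34% within 100 bp, 14.3% within 500 bp and 17.3% within 1000 bp. The cause of the other differences was not tested. Depth limits the list to places with at least 10 tags, so a gene without a peak may have had fewer.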
